A study of Homo sapiens with 6 samples.

Results

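Fatty acid synthesis and desaturation genes were followed in SW480 cells, a human colorectal cancer cell line, in which a KIAA1199 construct was switched on by doxycycline. The genes were chosen by their Ensembl identifiers, which name the probe sets of the deposited values: FASN (ENSG00000169710_at), ACLY (ENSG00000131473_at), SCD (ENSG00000099194_at), SREBF1 (ENSG00000072310_at), FADS1 (ENSG00000149485_at), FADS2 (ENSG00000134824_at), ELOVL6 (ENSG00000170522_at), ACSL3 (ENSG00000123983_at) and ME1 (ENSG00000065833_at). All 9 were present among the 26445 probe sets, each of which stands for 1 gene. FASN is also on a list that the study chose from these same samples, so its direction here is not independent evidence. The study made that list with the limits used below, but from transcript clusters and not from the probe sets analysed here.

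Total RNA came from 3 independent experiments, each with uninduced cells and with cells exposed to doxycycline at 50 ng/ml for 48 h, and was hybridized to 6 GeneChip Human Exon 1.0 ST arrays, 3 per group. The arrays were paired by the replicate number in their titles, which was read as the number of the experiment. All cells of both groups carried a tetracycline repressor (pcDNA6TR) and the untagged KIAA1199 construct (pT-Rex-DEST30-KIAA1199), and were kept in blasticidin S at 7 µg/ml, G418 at 0.4 mg/ml and 10% Tet-system-approved serum. The cells were a single clone, and no array of repressor-only cells with doxycycline was analysed here, so that KIAA1199 and the drug itself cannot be told apart. The only names available for the probe sets were those of the 9 genes. The level of KIAA1199, the markers of colorectal epithelium and the other genes of lipid metabolism were therefore not analysed here.

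Cells make fatty acids in the cytosol from acetyl-CoA, which ACLY (ATP citrate lyase) releases from citrate, with reducing power in the form of NADPH, which ME1 (malic enzyme) helps to supply. FASN (fatty acid synthase) builds the saturated chain palmitate, ELOVL6 lengthens it, SCD places the first double bond into saturated chains, and FADS1 and FADS2 desaturate polyunsaturated chains further. ACSL3 activates fatty acids to acyl-CoA for use in lipids, and SREBF1 encodes SREBP-1, the transcription factor of the endoplasmic reticulum membrane that is known to raise most of these enzymes when it is processed. Many colorectal tumours and their cell lines are known to make fatty acids in this way.

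Of the 9 genes, 8 had a higher mean with doxycycline and ACSL3 a lower one, with log2 fold changes between -0.07 and 0.38 and a median of 0.11. Over all probe sets 50.5% were higher with doxycycline and the median log2 fold change was 0.0017. The arrays share 1 distribution of levels, which holds the mean change over all probe sets at 0. In the limma fit of the deposited levels, only ACLY passed the limits that the study used for selection. These were an unadjusted p under 0.025 together with a minimum fold change of 1.2. No member was lowered past them (1 raised and 0 lowered of 9). Among all probe sets, 5.83% passed these limits with limma, 2.90% raised and 2.94% lowered, and a single call among 9 genes is too few to read against these shares. No probe set had a Benjamini-Hochberg adjusted p under 0.05 in limma (0% of 26445), although 12.3% had an unadjusted p under 0.05, as did 2 of the 9 genes, ACLY and FASN. By the methods' t-test, which is paired and two-tailed, ACLY was again the 1 member past the limits, where 1.07% of all probe sets were raised past them.

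**Figure D1:**
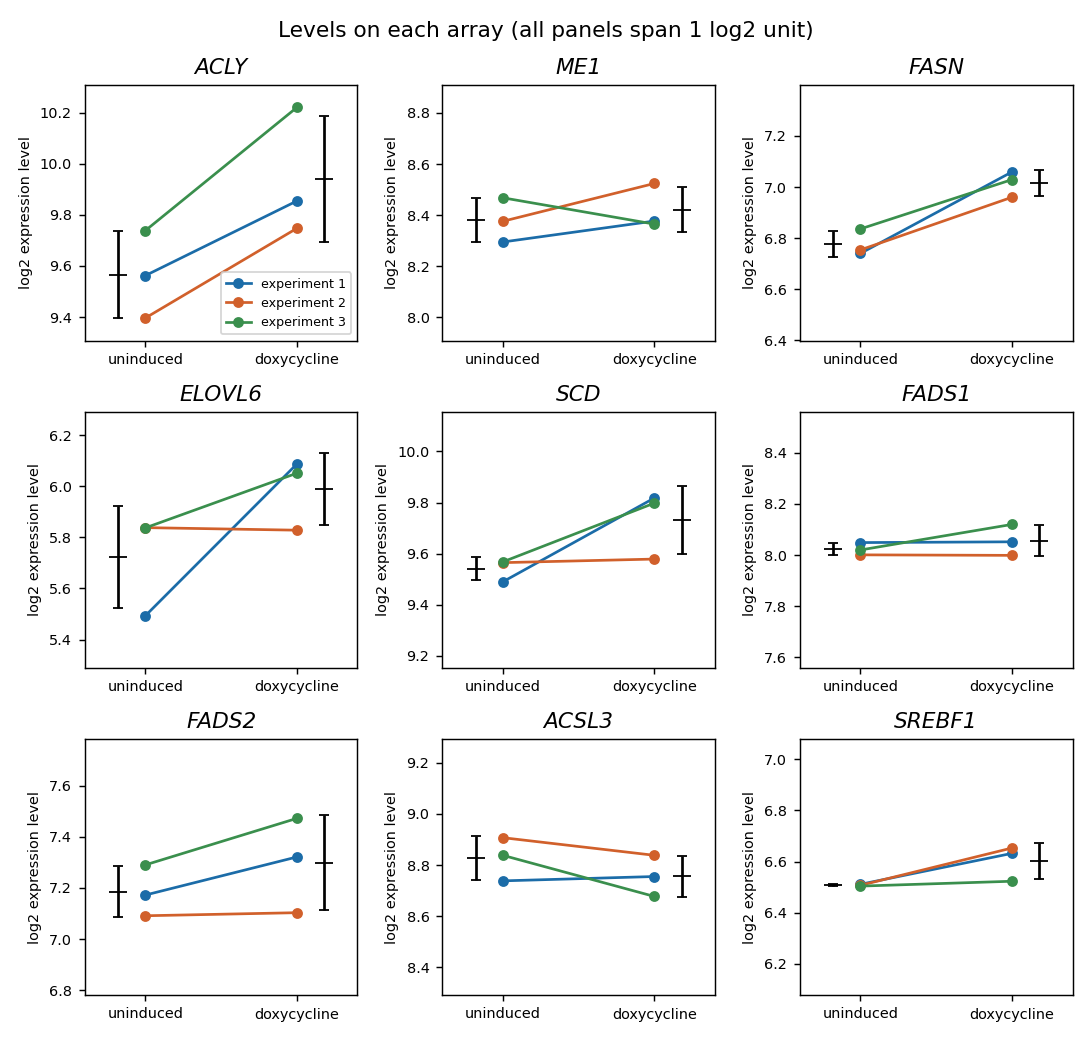
Log2 expression level of each gene (vertical axes, each spanning 1 log2 unit) in uninduced and doxycycline cells, with a line for each of the 3 experiments and black bars for the mean ± SD of each group (n = 3). The lines of ACLY and FASN climb in all 3 experiments, whereas those of FADS1 stay nearly level.

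ACLY, on the supply side of the pathway, had the largest change of the 9 genes. It stood at log2 levels of 9.56, 9.40 and 9.74 in the uninduced cells of experiments 1, 2 and 3 and at 9.85, 9.75 and 10.22 in the doxycycline cells. The groups did not overlap, but the lowest doxycycline array lay only 0.009 above the highest uninduced array, since the former came from experiment 2, the lowest in either group, and the latter from experiment 3, the highest in either group. Within the experiments ACLY was higher with doxycycline by 0.29, 0.35 and 0.48 on the log2 scale. It rose from 9.57 ± 0.17 to 9.94 ± 0.25 (SD, n = 3), a log2 fold change of 0.38 (standard error 0.07), or 1.30-fold with a 95% interval of 1.13 to 1.49. The p was 0.0064 before and 0.35 after adjustment in limma, and 96.6% of all probe sets had a lower log2 fold change. The call was lost without the block (unadjusted p = 0.046 in limma), and also without experiment 2 or experiment 3 (unadjusted p = 0.032 in both limma fits), with the log2 fold change at 0.32 to 0.42 when any experiment was left out.

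ME1, the NADPH source of the set, had no common direction. Its levels were 8.30, 8.38 and 8.47 without and 8.38, 8.52 and 8.37 with doxycycline. It was higher by 0.08 and 0.15 in experiments 1 and 2 and lower, at -0.10, in experiment 3, and the groups overlapped. The log2 fold change was 0.04 (95% interval -0.18 to 0.26, adjusted p = 0.87 in limma), and it turned to -0.0105 without experiment 2.

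FASN was separated by the widest gap between the groups. Its log2 levels were 6.74, 6.75 and 6.84 in uninduced cells and 7.06, 6.96 and 7.03 in doxycycline cells. All doxycycline arrays lay above all uninduced ones, and the gap was 0.12. The mean was 6.78 ± 0.05 (SD, n = 3) without and 7.02 ± 0.05 (SD, n = 3) with doxycycline, and the differences within the experiments were 0.32, 0.21 and 0.19. The log2 fold change of 0.24 (standard error 0.07) amounts to 1.18-fold with a 95% interval of 1.04 to 1.34. Its unadjusted p of 0.022 was under the study's limit in limma and its fold change was just under the minimum of 1.2. FASN was therefore not called from the deposited levels, and the adjusted p was 0.36. The unadjusted p was 0.10, 0.075 and 0.060 in limma without experiments 1, 2 and 3, and 0.027 with the level trend removed. By the methods' t-test the unadjusted p was 0.027 (n = 3 pairs, against 0.25 in an exact sign-flip permutation test, the smallest two-sided p that 3 pairs allow).

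The differences of ELOVL6 varied most among the experiments, with an SD of 0.31 (n = 3). Its levels were 5.49, 5.84 and 5.84 without and 6.09, 5.83 and 6.05 with doxycycline. The uninduced array of experiment 1 was the lowest of all, the doxycycline array of experiment 2 lay just under the uninduced one, and the groups overlapped. The differences of 0.59, -0.01 and 0.21 gave a log2 fold change of 0.27, or 1.202-fold, with a 95% interval from 0.92 to 1.57 (adjusted p = 0.52 in limma). The fold minimum was thus reached without the p limit, the opposite of FASN. A mean rise of at least 1.2-fold, whatever the p, was seen for 2 of the 9 genes, ACLY and ELOVL6, and for 7.43% of all probe sets. Without experiment 1 the log2 fold change of ELOVL6 was only 0.10, below that minimum, and without experiment 2 it was 0.40.

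**Figure D2:**
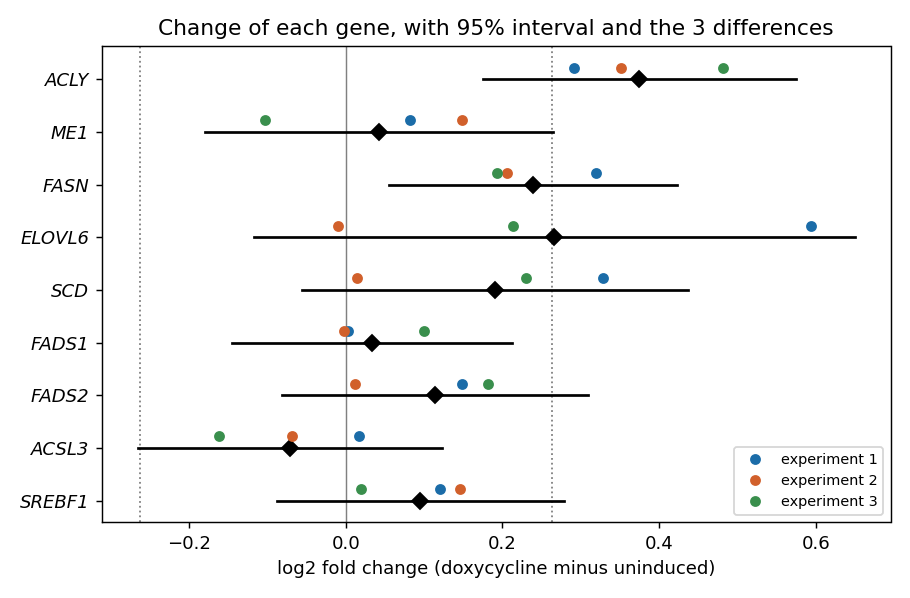
Log2 fold change of each gene, doxycycline minus uninduced (diamonds), with its 95% interval from limma (lines) and the difference within each of the 3 experiments (coloured points); dotted lines mark a 1.2-fold change. Only the intervals of ACLY and FASN lie entirely above 0, and the points of experiment 2 lie near 0 for ELOVL6, SCD, FADS1 and FADS2.

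The desaturases had mean differences of unequal size, none of which passed the limits. SCD, the enzyme that makes oleate and palmitoleate, was at log2 levels of 9.49, 9.57 and 9.57 in uninduced and 9.82, 9.58 and 9.80 in doxycycline cells. Its groups did not overlap, but the margin was only 0.011, set by the doxycycline array of experiment 2. The differences were 0.33, 0.014 and 0.23, and the log2 fold change of 0.19 (1.14-fold, 95% interval 0.96 to 1.35) had an adjusted p of 0.48 in limma. It was 0.12 without experiment 1 and 0.28 without experiment 2.

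FADS2, the delta-6 desaturase, was at log2 levels of 7.17, 7.09 and 7.29 without and 7.32, 7.10 and 7.47 with doxycycline. Experiment 3 was highest and experiment 2 lowest in either group, and the groups overlapped. The differences of 0.15, 0.012 and 0.18 gave 1.08-fold (95% interval 0.95 to 1.24, adjusted p = 0.58 in limma).

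FADS1, the delta-5 desaturase, was at 8.049, 8.001 and 8.020 without and 8.052, 7.999 and 8.120 with doxycycline, on the log2 scale. Only the doxycycline array of experiment 3 stood apart, with a difference of 0.10 there and at most 0.003 in size in the other experiments. The mean ratio was 1.02-fold with a 95% interval of 0.90 to 1.16 (adjusted p = 0.87 in limma). In the RefSeq annotation FADS1 and FADS2 lie head to head and overlap at their starts. The deposited values do not show where the probes lie, so whether any of them lie in the shared stretch could not be checked here.

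ACSL3 was the member with a lower mean. Its log2 levels were 8.74, 8.91 and 8.84 without and 8.76, 8.84 and 8.68 with doxycycline, with overlapping groups and differences of 0.02, -0.07 and -0.16. The log2 fold change was -0.07 (0.95-fold, 95% interval 0.83 to 1.09, adjusted p = 0.72 in limma), and it ran from -0.12 without experiment 1 to -0.026 without experiment 3.

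SREBF1, the regulator, had almost the same level on all uninduced arrays. These were at 6.51, 6.51 and 6.50 on the log2 scale, with an SD of 0.0035 (n = 3), against 6.63, 6.65 and 6.52 in the doxycycline cells. The groups did not overlap, with a margin of 0.012 at experiment 3. The differences were 0.12, 0.15 and 0.02, and the log2 fold change of 0.10 (1.07-fold, 95% interval 0.94 to 1.21) had an adjusted p of 0.62 in limma. The arrays measured the transcript of SREBF1 and not the processing of its protein.

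Of the 9 genes, 4 (ACLY, FASN, SCD and SREBF1) had all doxycycline arrays above all uninduced ones, and 0 had the reverse. Among all probe sets 8.64% were separated upwards in this way and 7.93% downwards. A higher level in all 3 experiments was found for 5 genes, the same 4 and FADS2, against 18.9% of all probe sets, and a lower level in all 3 for 0, against 17.6%. No exact test over 3 pairs can go below p = 0.25, and none was made over the list.

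**Figure D3:**
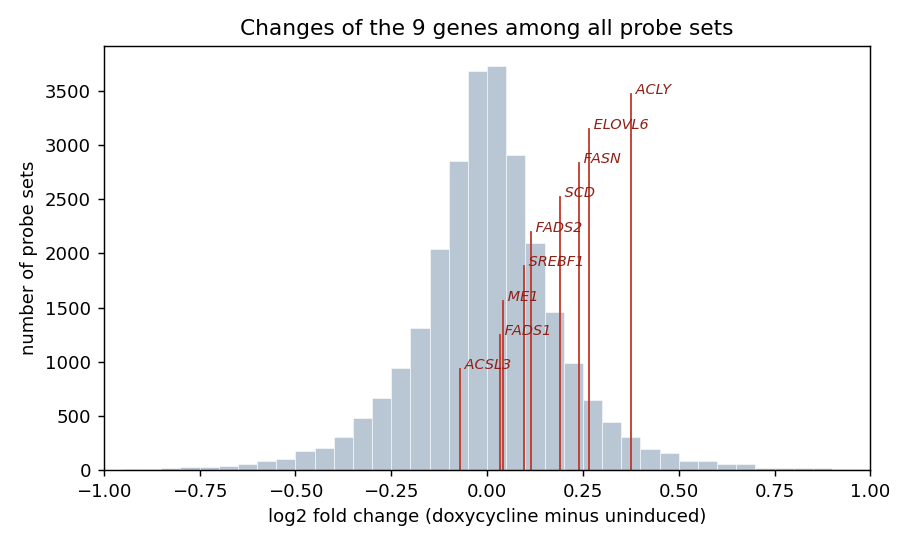
Histogram of the log2 fold change (horizontal axis, doxycycline minus uninduced) of the probe sets (vertical axis, number per bin), with red lines at the 9 genes, whose heights only separate the labels; 54 probe sets beyond ±1 are not drawn. The genes run from ACSL3 at -0.07 to ACLY at 0.38, within the bulk and the upper flank of the distribution.

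The experiments did not contribute alike. The median difference over the 9 genes was 0.15 in experiment 1, 0.014 in experiment 2 and 0.18 in experiment 3 on the log2 scale. Over all probe sets it was between -0.004 and 0.007, which the shared distribution of the arrays keeps near 0. In experiment 1 all 9 genes were higher with doxycycline, in experiment 2 only 6 and in experiment 3 only 7. In experiment 2 the differences of ACLY, FASN, SREBF1 and ME1 were 0.35, 0.21, 0.15 and 0.15, while those of SCD, FADS2, FADS1 and ELOVL6, the desaturation and elongation enzymes, lay between -0.01 and 0.014. ACSL3 was at -0.07 there. Whether experiment 2 truly differed from the others was not tested, since each experiment had 1 array per group.

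The variation of each gene over the 6 arrays was divided into a part between the groups, a part between the experiments and a rest. For FASN 89.1% of the sum of squares lay between the groups and 5.9% between the experiments. ACLY was divided into 53.7% and 43.8%, with only 2.4% as the rest, and SCD and SREBF1 had 58.3% each between the groups. FADS2 showed the reverse, with 74.4% between the experiments and 18.1% between the groups, and FADS1, ACSL3 and ME1 also had more between the experiments, 51.0%, 55.7% and 41.2%. ME1 had the smallest part between the groups, 8.1%. Over the 9 genes the median was 47.2% between the groups, against 18.5% over all probe sets. Between the experiments it was 41.2% over the 9 genes, near the 38.1% over all probe sets. With 3 experiments and only 2 groups, the part between the experiments tends to be the larger even without a true difference. The part between the groups and the fold change come from the same arrays and are no separate evidence.

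**Figure D4:**
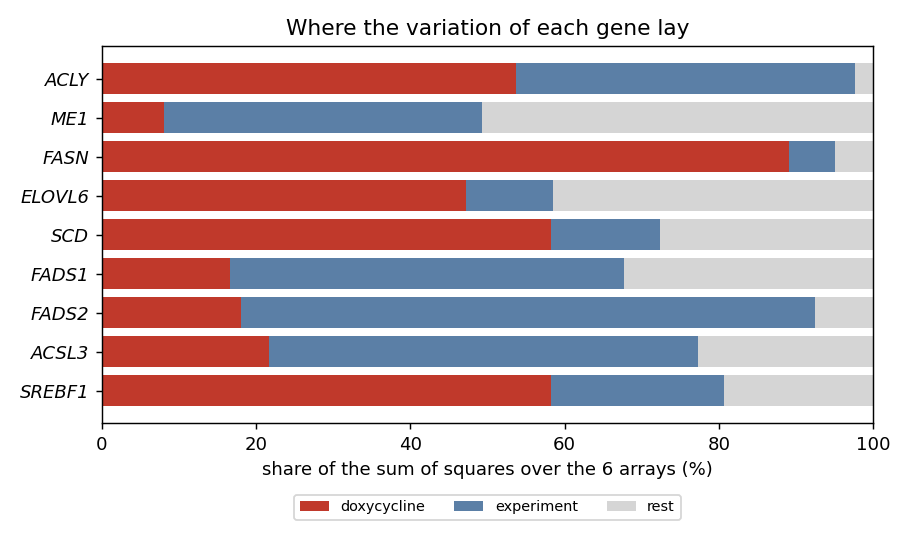
Share of each gene's sum of squares over the 6 arrays (horizontal axis, %) that lay between doxycycline and uninduced cells (red), between the 3 experiments (blue) and in the rest (grey). FASN is almost wholly red at 89.1%, while FADS2 is mostly blue at 74.4%.

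Some pairs of members had similar levels from array to array, and others ran against each other. Over the 6 arrays the Pearson r among the 36 pairs of genes ran from -0.92 to 0.90 with a median of 0.36. It was above 0 in 24 pairs and above 0.8 in 7 pairs. The highest was that of SCD and ELOVL6 (r = 0.90), followed by FASN and SCD (r = 0.89), ACLY and FADS2 (r = 0.89) and FADS1 and FADS2 (r = 0.88). The lowest was that of FADS1 and ACSL3 (r = -0.92). After the group means were removed, the median was 0.17 and 4 pairs were above 0.8, with FASN and ACLY going from 0.82 to 0.57 and ACLY and SCD from 0.78 to 0.49. ACLY and FADS2 then had r = 0.93 and FADS1 and FADS2 r = 0.86, and SREBF1 ran against ACLY (r = -0.83), FADS1 (r = -0.87) and FADS2 (r = -0.79). Before the group means were removed, SREBF1 had r = 0.19 with ACLY, -0.20 with FADS1 and -0.14 with FADS2. Its deviations came mainly from the doxycycline arrays, with an SD of 0.07 there against 0.0035 on the uninduced arrays (n = 3 each). These are descriptions over 6 arrays that share experiments, groups and 1 normalization. The share of r above 0.8 among pairs of other probe sets was not computed, so the counts are not a trait of these genes.

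Probe sets outside the set were also compared with FASN and SCD. Of 13220 other probe sets with a mean level above the median, the one most like FASN had r = 0.997 (ENSG00000109265_at) and the one most like SCD r = 0.986 (ENSG00000182054_at), and neither could be named. SCD was the member most like FASN, at rank 448 of these probe sets, 96.6% of which had a lower r. ELOVL6 was the member most like SCD, at rank 141 (98.9% had a lower r), with FASN next at rank 195 (98.5%).

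SREBP-1 is known to act with the factors NF-Y and Sp1 at the promoters of lipogenic genes, and the promoters were therefore searched for the letters of their sites. RefSeq promoter windows (GRCh38.p14, 250 bases before to 50 after the start site) matched 8 of the 9 genes, in 10 windows: ACLY, ME1, ELOVL6, SCD, FADS1, FADS2, ACSL3 and SREBF1. The upstream 250 bases are shown for ACLY, the gene that passed the limits, and for SCD, whose levels over the arrays were the most like those of FASN among the other 8 genes. Capitals mark the NF-Y box CCAAT, or ATTGG where it lies on the opposite strand.
ACLY, chr17:41919023-41919272, minus strand: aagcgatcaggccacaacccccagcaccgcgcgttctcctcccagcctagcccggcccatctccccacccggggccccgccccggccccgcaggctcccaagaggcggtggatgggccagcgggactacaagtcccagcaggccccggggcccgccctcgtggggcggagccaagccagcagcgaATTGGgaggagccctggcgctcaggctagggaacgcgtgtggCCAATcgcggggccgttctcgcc
SCD, chr10:100346983-100347232, plus strand: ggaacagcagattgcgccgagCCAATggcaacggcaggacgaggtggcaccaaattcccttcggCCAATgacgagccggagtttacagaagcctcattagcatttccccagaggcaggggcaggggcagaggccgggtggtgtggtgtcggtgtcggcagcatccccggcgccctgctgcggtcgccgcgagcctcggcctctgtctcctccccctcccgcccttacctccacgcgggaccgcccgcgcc
The ACLY stretch holds 2 NF-Y boxes, the first base of which lies at -65 and -23 from the start site of the window shown. From the start site of the other ACLY window the same boxes lie at -136 and -94. The SCD stretch holds 2 at -229 and -186.

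Searched on both strands, CCAAT was found in 5 of the 10 windows, those of 4 genes (ACLY, SCD, ACSL3 and FADS2), against 34.6% of 35116 promoter windows. The Sp1 box GGGCGG was found in 9 of the 10 windows, against 45.0% of all. The windows of ACLY overlap each other and hold the same NF-Y and Sp1 matches, and those of FADS2 also overlap, so the windows are not separate observations. The sterol regulatory element TCACNCCAC (N for any base) was in 0 of the 10 windows and in 1.13% of all, and the E-box CACGTG in 0 of the 10 and 7.26% of all. Matches of different motifs did not overlap. A match shows only that the letters are present in the window, and no match says nothing about binding elsewhere.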

How the data were processed

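The authors deposited log2 levels of 26445 probe sets under Ensembl gene identifiers, from 6 GeneChip Human Exon 1.0 ST arrays. Per the submitters' processing notes the levels were made with RMA, which corrects the background, normalizes between arrays and summarizes the probes. Its version, settings and annotation are not given in the sources used here. Every array had a median of 5.66 and a range of 1.48 to 12.6, so the arrays share 1 distribution, and a shift of all genes together could not be seen. Levels were ranked across probe sets only to leave out low ones, and no detection calls were used. The number of arrays, 3 per group, limits the precision.

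Groups and replicate numbers were taken from the sample titles. The titles do not name the experiments, and arrays with the same replicate number were read as 1 experiment. The dose and time came from the labels, which state the same exposure for all samples. That exposure was read as the one of the cells labelled as induced, and the study's methods give a range of doses for the induction. Log2 fold changes are doxycycline minus uninduced, fitted with limma 3.58.1 (lmFit and eBayes, two-sided) in R 4.3.3 over all probe sets, with the experiment as a block after the paired test of the methods. The Benjamini-Hochberg adjustment ran over the whole table. Calls followed the study's limits, an unadjusted p under 0.025 and at least 1.2-fold. The fit was tested on simulated data. Alternatives left out the block, used the methods' t-test, other variance priors, a filter on the 25% lowest levels, centring, removal of the level trend by lowess (span 0.3), other fold minimums (none and 1.5), and left out each experiment.

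The members, lists and tests were chosen with earlier results of these data known. All 9 members are named in the text, and the probe sets most like FASN and SCD were taken by Pearson r. The reference table paired 0 of the Ensembl identifiers with symbols. Promoter windows were matched by symbol.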

Additional observations from a re-analysis of the deposited data

How the results depend on the processing

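The median log2 fold change of the 9 genes, 0.11, was 0.106 with the level trend removed. It was 0.097, 0.17 and 0.13 without experiments 1, 2 and 3. These shifts were smaller than the spread between experiments, a limit that leaving out 1 of 3 experiments can hardly pass. The other alternatives do not alter a gene's fold change, and the filter dropped none of the 9, so they could not move this median. Of 90 values of single genes under the alternatives, 86 kept their direction and their side of the study's limits. A direction could turn only in fits without an experiment or without the level trend, as the rest left each fold change unchanged. In those, only the p could move a gene across the limits. FASN did not pass the limits under any of its 10 alternatives, although its unadjusted p alone was above 0.025 in 5 of them. The 3 that no longer passed were those of ACLY without the replicate block, without experiment 2 and without experiment 3, and ME1 turned from 0.04 to -0.0105 without experiment 2. These fits have fewer arrays or no pairing; the cause was not tested beyond that. The count of raised members was accordingly 0 without the replicate block and 0 to 1 with an experiment left out, against 1, and it was 2 with no fold minimum, which admits FASN, and 0 with a minimum of 1.5. Over all probe sets, 1543 passed the limits in limma with the block and 1050 without it, 862 of them the same. The methods' t-test gave 577, a minimum of 1.5 gave 238, and leaving out an experiment gave 986 (experiment 3) to 1344 (experiment 1), with 994 without experiment 2; of these, 501, 675 and 517 were among the 1543. No setting gave an adjusted p under 0.05. The replicate numbers were checked from the deviations of the arrays from their group means, which correlated with r of 0.039, 0.049 and 0.13 for arrays of the same number, and 5 of the 6 arrays correlated best with their own. The block was kept because the methods pair the test. Centring changed no call, since the arrays already share 1 median. The settings planned for other gene lists were not run because their identifiers could not be named.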
